A study of Ovis aries with 42 samples.

Results

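The genes described are HSPB1, HSPB2, HSPB6, HSPB7, HSPB8 and CRYAB, which encode small heat shock proteins, and BAG3, HSPH1 and DNAJB1, which encode partners of the same chaperone system. These 9 genes, of 29832 named in the liver or gallbladder table, were selected on the CF against WT values of HSPB8 in fetal liver, where it had been seen higher in CF. Fetal liver differences between the genotypes therefore chose the members and are described with no test. A row was found for 8 of the 9 in both tables, and HSPB7 had none and is not analysed here. The 8 members passed the filter on low counts in both tissues, although HSPB6 was at or near 0 in most liver libraries.

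RNA was sequenced from frozen liver and gallbladder of sheep (Ovis aries), either wild type (WT) or of the cystic fibrosis genotype (CF), CFTR-/- in the study's title. CFTR is the anion channel of epithelia that carries the mutations of cystic fibrosis, and the kind of mutation is not given in the sources used here. The 24 liver libraries were 2 of WT and 2 of CF at each of gestation day 50, 65, 80, 100 and 120 (d50 to d120), 2 of WT at term and 2 of CF at birth, with term and birth taken as the end of gestation. The 12 gallbladder libraries covered d100 and d120 in both genotypes, d80 in CF and birth in WT, again 2 per group, the CF d100 pair being named a and b. Both CF d100 columns carry the name of 1 library with these letters and the second CF d100 library of the labels has no column of its name, so they may be repeats of 1 library. Their counts differed by more than sampling noise, as did those of every other pair of libraries in a group. This does not show that they come from separate animals. They were used as 2 values, and results with their sum as 1 unit are given beside those they touch. Libraries held 29705597 to 56808639 estimated counts in liver and 32374693 to 54443213 in gallbladder. In 7 groups (WT liver at d50, d80, d100 and d120, CF liver at d65 and d80, WT gallbladder at d100) both donor numbers share a stem, and 1 donor number stands under WT d65 and under CF d100 liver. Nothing in the labels says that the libraries of such a pair come from separate animals, so p-values measure the spread between libraries, which may be technical. In the WT d100 gallbladder pair the donor numbers differ only by a last letter, A or B. The number without the letter also stands under WT d100 liver, so this pair may be 1 animal. It had the smallest chi-square per gene between its libraries of all pairs, and the gallbladder SE rest in part on it. CFTR RNA was higher in the libraries labelled CF at the end of gestation and in gallbladder. In CPM (counts scaled to a common library size with TMM factors) it was at 0.846 to 2.81 in WT liver, 0.687 to 17.3 in fetal CF liver and 38.4 and 42.2 in CF birth liver, a log2 difference of 4.92 ± 0.61 from WT term (adjusted p = 1.49e-05, edgeR). In gallbladder it was at 7.13 to 33.1 CPM in WT and 17.99 to 116.85 CPM in CF (2.16 ± 0.54 over d100 and d120, adjusted p = 0.0154, edgeR). A transcript level cannot check the genotype where the mutation may leave the RNA in place, and the labels were used as given. Hepatocyte genes (21 genes, summed) were at 198080 to 375320 CPM in fetal liver. They were at 103970 to 280320 CPM in the WT gallbladder libraries of d100 and d120 and at 2064 to 76642 CPM in those of CF, so both WT d100 libraries lay within the range of fetal liver.

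Small heat shock proteins bind unfolding proteins without using ATP and hold them in a state from which they can be refolded. HSP70 proteins then refold the client with a J-domain partner such as DNAJB1 (HSP40) and a nucleotide exchange factor such as HSPH1 (HSP110) or BAG3. HSPB8 forms a complex with BAG3 that, with HSP70 and the ubiquitin ligase STUB1, sends damaged proteins to autophagy. The transcription factor HSF1 raises many of these genes after heat or other protein-damaging stress. HSPB2, HSPB6 and HSPB7 are known chiefly from muscle, and CRYAB and HSPB2 lie next to each other in the RefSeq gene table of sheep.

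HSPB8, the gene on whose values the choice was made, was higher in CF in fetal liver. The WT libraries held 11.6 and 12.4 CPM at d50, 14.8 and 14.9 at d65, 24.03 and 24.5 at d80, then 19.0 and 15.5 at d100, and 22.6 and 22.1 CPM at d120. In CF the level was 30.5 and 178.5 CPM at d50, 37.7 and 27.7 at d65, 38.7 and 45.2 at d80, then 43.9 and 41.6 at d100, and 96.3 and 54.2 CPM at d120. All 10 CF libraries were above all 10 WT libraries, and at each of the 5 stages both CF libraries were above both WT libraries. Of the 16508 genes tested, 0.0545% had CF above and 0.103% CF below WT with no overlap, and 2.54% were called at an adjusted p under 0.05 (0.854% higher and 1.69% lower in CF), from which nothing is read for members chosen on this contrast. The ratio of the CF to the WT group mean was 8.69 at d50, 2.20 at d65, 1.73 at d80, then 2.48 at d100 and 3.36 at d120. The mean log2 difference over the 5 stages was 1.62 ± 0.22 (SE), and it was 1.17 without CF d50 replicate 2 and CF d120 replicate 1, the pair of highest CF libraries. With 1 unit per donor-number stem it was 1.63, and without the donor number found under both genotypes 1.65.

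No difference in HSPB8 was detected at the end of gestation. WT term liver held 66.1 and 57.9 CPM, above every fetal WT library, and CF birth liver held 66.8 and 44.7 CPM. These pairs overlapped, and the CF minus WT log2 difference was -0.15 ± 0.47 (adjusted p = 0.838, quasi-likelihood test of edgeR, Benjamini-Hochberg adjusted over 16508 genes).

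**Figure D1:**
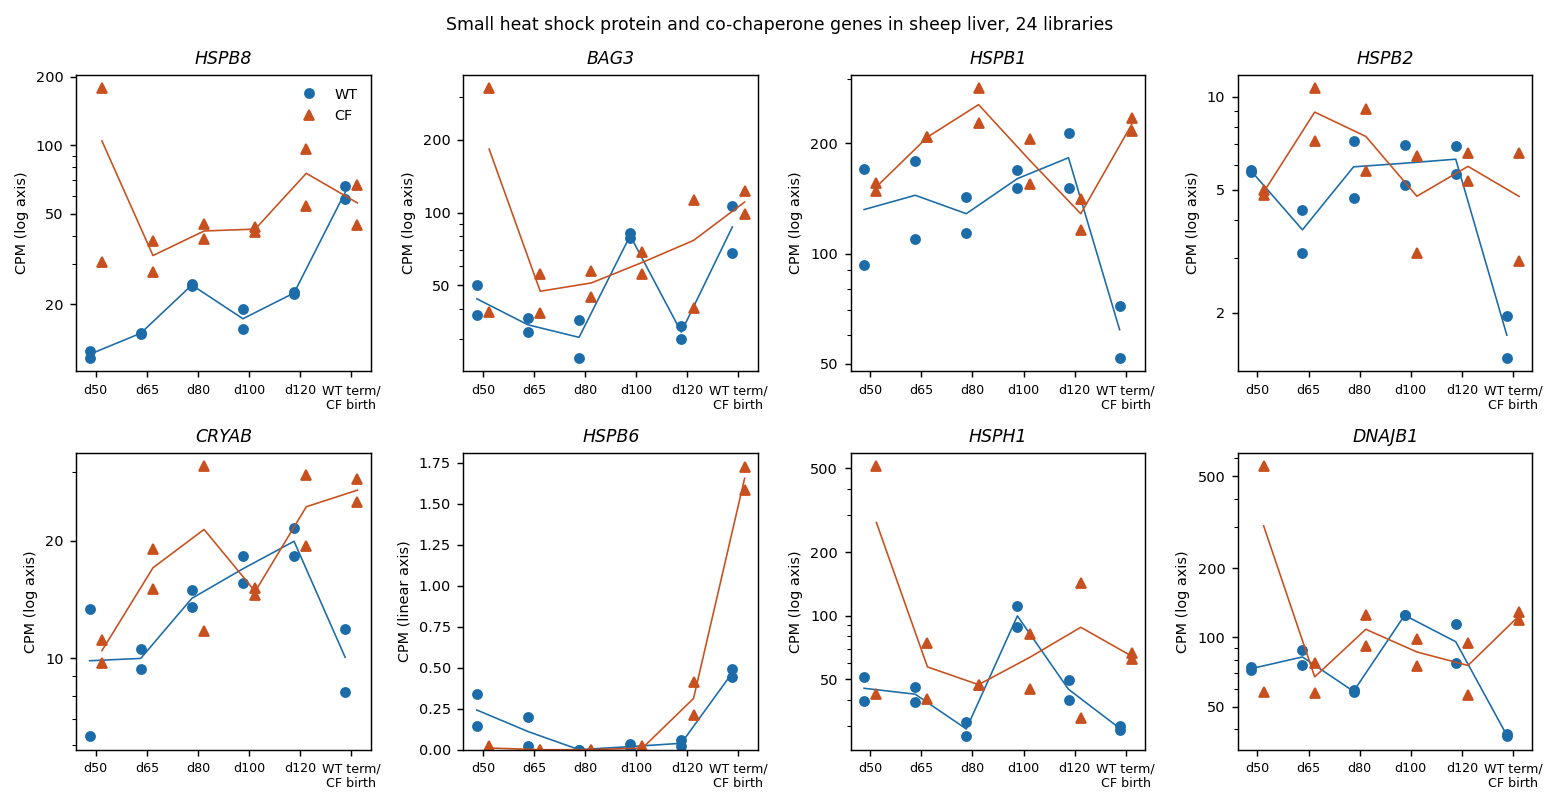
CPM of the 8 members in the 24 liver libraries by stage, with log axes except for HSPB6. Circles are WT and triangles CF libraries, and lines join group means (n = 2). HSPB8 in CF lies above WT at d50 to d120 and overlaps it at the end of gestation, and 1 CF library at d50 stands far above the others in HSPB8, BAG3, HSPH1 and DNAJB1.

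BAG3, HSPH1 and DNAJB1, the partners of the HSP70 cycle, overlapped between the genotypes in fetal liver. BAG3 ranged from 25.1 to 82.1 CPM in the 10 WT libraries and from 38.6 to 113.0 CPM in 9 CF libraries, with 327.7 CPM in CF d50 replicate 2. Its mean log2 difference was 0.83 ± 0.27, against 0.38 without that library. HSPH1 was at 0.81 ± 0.32 with all libraries and at 0.27 without that one, and DNAJB1 at 0.36 ± 0.25 and -0.12. For DNAJB1 the sign thus turned when 1 library was left out, and for HSPH1 it turned to -0.01 when CF d120 replicate 1 was left out as well. For HSPB8, chosen on these values, the difference without CF d50 replicate 2 was 1.27.

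CF d50 replicate 2 stood apart across inducible chaperones. It was the highest of the 24 liver libraries for 4 of the 8 members, for 13 of 21 HSP70, HSP90 and chaperonin genes (61.9%) and for 11 of 23 co-chaperone genes (47.8%), and for 3.69% of all genes tested. HSPH1 was at 510.9 CPM there and at 42.8 CPM in CF d50 replicate 1, and DNAJB1 at 552.0 and 57.8 CPM. HSPA1A, a stress-inducible HSP70, was at 3810 CPM against 257.0 CPM in replicate 1 and at most 1361 CPM in any other liver library. HSPA6, another inducible HSP70, was at 511.9 CPM against at most 51.1 CPM elsewhere. HSPA8, the constitutive HSP70, was at 2711 CPM and HSP90AA1, the inducible cytosolic HSP90, at 3469 CPM, against medians of 1002 and 1265 CPM in the other 23 libraries. HSPA1A and HSPA1B are near-identical copies between which reads may be split. HSPB1, CRYAB and HSPB2 were not among the high genes, since in that library they were at 148.6, 11.2 and 4.995 CPM, ranks 16, 19 and 16 of 24. HSF1 was at 19.9 CPM there and at 20.9 CPM in replicate 1. What set this library apart was not tested.

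**Figure D2:**
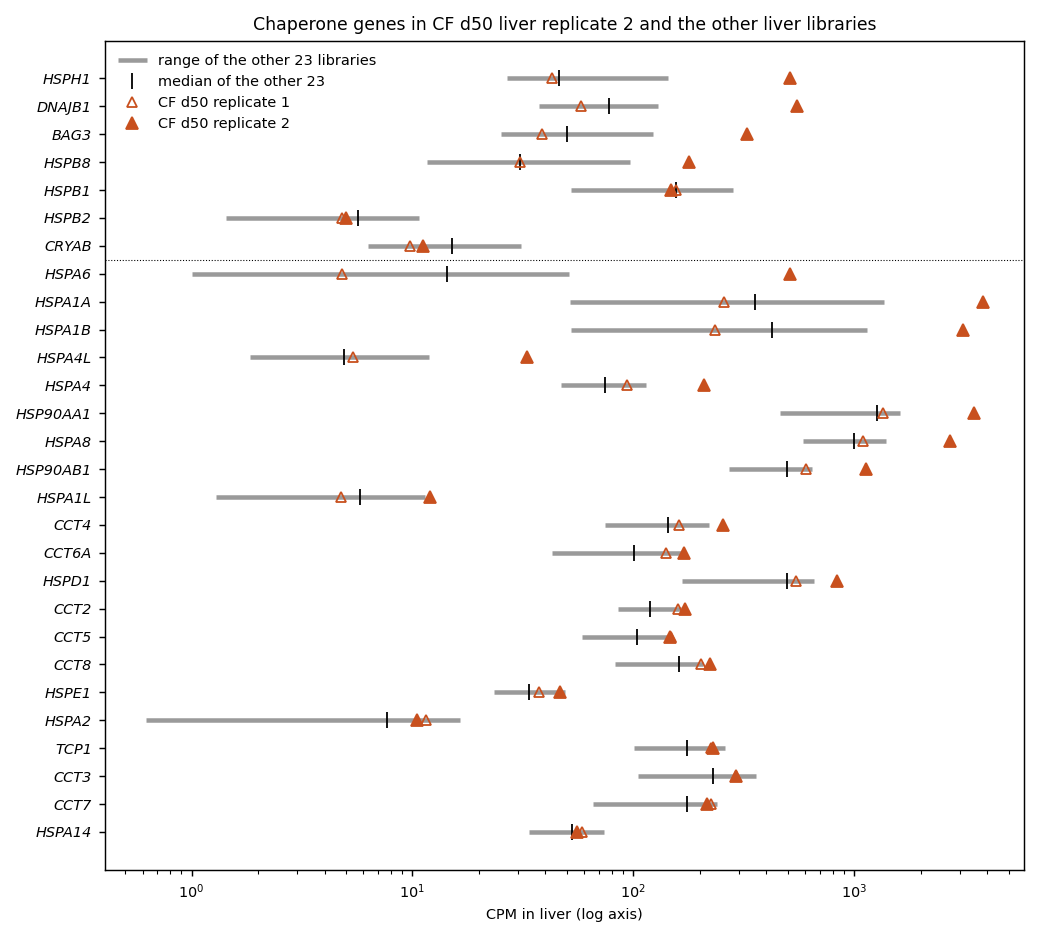
CPM (log axis) in liver of 7 members above a dotted line and of 21 HSP70, HSP90 and chaperonin genes below it. Grey bars span the other 23 libraries with their median as a tick, and filled and open triangles are CF d50 replicates 2 and 1. The filled triangle is right of the bar for HSPB8, BAG3, HSPH1, DNAJB1, HSPA1A and HSPA6 and inside it for HSPB1, CRYAB and HSPB2.

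The remaining small heat shock proteins differed less between fetal genotypes. HSPB1, which also guards the actin cytoskeleton, ranged from 93.4 to 214.0 CPM in WT and from 116.0 to 283.4 CPM in CF, a log2 difference of 0.28 ± 0.13. Both CF libraries were above both WT libraries at d65 and at d80, and both were below at d120. CRYAB, alpha B-crystallin, ranged from 6.31 to 21.6 CPM in WT and from 9.75 to 31.1 CPM in CF, a log2 difference of 0.31 ± 0.17, and HSPB2 was at 0.19 ± 0.18. HSPB6 had at most 0.34 CPM in WT and 0.41 CPM in CF fetal libraries and was at 0 in 3 of the 10 WT and 6 of the 10 CF libraries, so no fold is given. Of the other genes of the family, HSPB11 was at 3.49 to 8.60 CPM in fetal liver, CRYAA reached 0.793 CPM, and HSPB3, HSPB9 and ODF1 were at or near 0.

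With fetal age, 0 of the 8 members changed in WT liver, where 4.8% of genes were called (3.19% higher, 1.61% lower), and 1 of 8 in CF liver, where 16.5% were (8.58% higher, 7.96% lower). CRYAB had the largest WT slope among the members with steady counts, 1.12 ± 0.33 in log2 from d50 to d120 (adjusted p = 0.0635, edgeR), and HSPB8 was at 0.76 ± 0.42 (adjusted p = 0.349). The CF call was HSPB6 (5.03 ± 1.61, adjusted p = 0.0455, edgeR), whose CF groups held 1, 0, 0, 1 and 39 estimated counts in all from d50 to d120, and it was lost in 10 of 17 alternatives. HSPB8 in CF was at -0.12 ± 0.42 (adjusted p = 0.901, edgeR). Without CF d50 replicate 2 its CF slope was 1.21, the highest of the values with 1 library left out. Its fetal CF libraries also belong to the values by which it was chosen. The difference between the slopes sets the genotypes against each other in fetal liver, so it was not tested for the members, and 0.00606% of all genes were called. In CF liver 14 of 21 HSP70, HSP90 and chaperonin genes and 8 of 23 co-chaperones fell with age and 0 rose; in WT 0 of either list did. Among them HSPA2 fell by 2.07 ± 0.38 and HSPA4 by 1.12 ± 0.27 in log2 (adjusted p = 0.00168 and 0.0101, edgeR). The library with the high chaperone values lies at the early end of this slope. Without it 9 of the 21 genes and 3 of the 23 co-chaperones fell and 1 and 0 rose, where 14.6% of genes were called, and without CF d120 replicate 1 as well 4 and 2 fell and 0 rose, where 4.3% of genes were.

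At the end of gestation HSPB1, HSPB2, CRYAB and DNAJB1 were higher in CF liver. Of the 8 members 4 were higher in CF birth than in WT term liver and 0 lower, where 33.7% of all genes were called, 17.0% higher and 16.8% lower. HSPB1 was at 216.5 and 235.1 CPM in CF birth and at 51.9 and 72.1 CPM in WT term, a log2 difference of 1.86 ± 0.30 (adjusted p = 0.000169, edgeR). CRYAB was at 28.8 and 25.1 CPM against 11.9 and 8.20 CPM (1.42 ± 0.38, adjusted p = 0.00744, edgeR). HSPB1 passed in 11 of 11 alternatives. CRYAB lost the call without WT term replicate 2 (1.17, adjusted p = 0.0839, edgeR).

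HSPB2 and DNAJB1 were the other members called. HSPB2 was at 6.57 and 2.94 CPM in CF birth and 1.43 and 1.95 CPM in WT term (1.49 ± 0.43, adjusted p = 0.0117, edgeR), with values from 0.79 to 1.91 when 1 library was left out, and DNAJB1 was at 129.4 and 118.9 against 38.0 and 37.3 CPM (1.72 ± 0.58, adjusted p = 0.0281, edgeR). DNAJB1 lost the call with any 1 of the 4 libraries left out, and HSPB2 without WT term replicate 1 or CF birth replicate 1. HSPH1 was at 62.2 and 66.5 against 28.6 and 30.1 CPM and missed the threshold (1.13 ± 0.71, adjusted p = 0.236, edgeR). BAG3 was at 0.34 ± 0.59 (adjusted p = 0.695, edgeR). HSPB6 was at 1.72 and 1.58 CPM in CF birth and at 0.49 and 0.44 CPM in WT term (1.81 ± 1.27, adjusted p = 0.294, edgeR).

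Of 21 HSP70, HSP90 and chaperonin genes 4 were higher and 5 lower in CF birth, shares of the list near the shares of all genes called above. HSPA1A was higher by 4.28 ± 0.78 and HSPA6 by 4.46 ± 1.26 in log2, whereas the mitochondrial chaperonins HSPD1 and HSPE1 were at -1.44 ± 0.27 and -1.05 ± 0.17 (adjusted p = 0.000429, 0.0108, 0.000595 and 0.000139, edgeR). Of 23 co-chaperones 2 were higher and 6 lower, and HSF1 was higher by 1.17 ± 0.26 (adjusted p = 0.0023, edgeR). The end-of-gestation pairs also differed in other transcripts. Summed hepatocyte genes were at 42368 to 159600 CPM in CF birth and 235120 to 243930 CPM in WT term, with 13 of 21 lower. Endothelial and mesenchymal genes (14 genes) were at 2284 to 4767 and 640 to 741 CPM with 12 higher, and immediate early genes (20 genes) at 700 to 1119 and 243 to 336 CPM with 11 higher. The part of these differences in the members' values was not tested. In such bulk tissue, fewer cells of a type and less RNA per cell cannot be told apart. The WT term libraries also carry names from another number series than all other liver libraries, so that a library series and the groups of this comparison cannot be told apart.

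**Figure D3:**
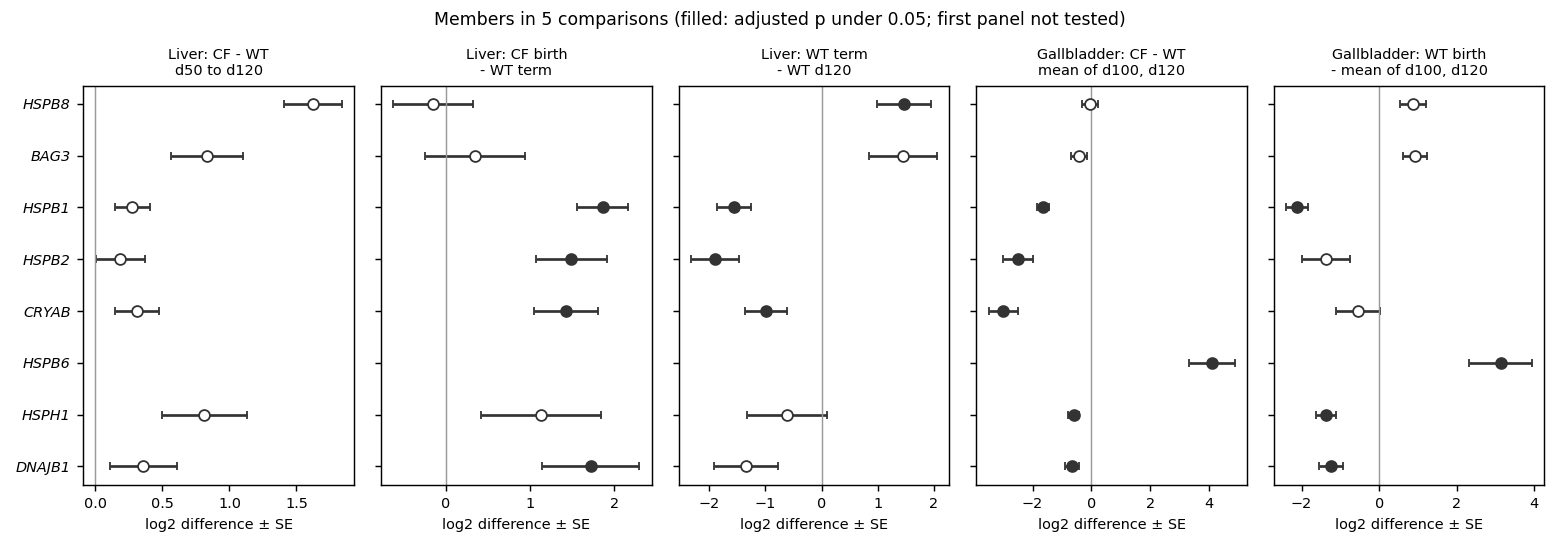
Log2 difference with its SE for the members in 5 comparisons, with filled points for an adjusted p under 0.05 in edgeR's quasi-likelihood test; HSPB6 is not drawn for liver, and the first panel is a description with no test. HSPB8 is far from 0 in fetal liver, while HSPB1, HSPB2 and CRYAB are above 0 in CF birth liver and below 0 in CF gallbladder.

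WT term liver held more HSPB8 and less HSPB1 and HSPB2 than WT liver at d120. From d120 to term 1 of 8 members rose and 3 fell, where 35.4% of genes were called (16.9% higher, 18.5% lower). The WT term libraries carry the other number series named above, so library series and stage cannot be told apart here either. HSPB1 went from 151.6 and 214.0 CPM to the term values above (-1.56 ± 0.30, adjusted p = 0.00058, edgeR) and HSPB2 from 6.92 and 5.63 CPM (-1.89 ± 0.43, adjusted p = 0.00231, edgeR). Both kept the call in 11 of 11 alternatives. CRYAB was lower at term by a log2 of -0.99 ± 0.38 (adjusted p = 0.0487, edgeR), a call lost in 8 of 11 alternatives. HSPB8 was the member that rose (1.47 ± 0.48, adjusted p = 0.0242, edgeR), and it lost the call when any 1 of the 4 libraries was left out; its WT d120 libraries also belong to the fetal values by which it was chosen. BAG3 and DNAJB1 were at 1.44 ± 0.61 and -1.35 ± 0.57 with adjusted p-values of 0.0733 and 0.0762 (edgeR), above the threshold of 0.05. This comparison and that of CF birth with WT term share the WT term libraries. WT liver at d120 and at term also differed in other transcripts. Summed red cell precursor genes (15 of 16 in the table) were at 151.7 to 151.8 CPM at term. In WT d100 and d120 liver they were at 62863 to 111000 CPM. Macrophage genes (10 genes) were at 1715 to 1873 CPM at term and 631 to 939 CPM at d100 and d120. Their part in the members' values was not tested.

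From d120 to birth in CF liver 0 of 8 members were called, where 14.7% of genes were (6.34% higher, 8.39% lower). HSPB1 was at 116.0 and 141.1 CPM at d120 and was 0.81 ± 0.29 higher in log2 at birth (adjusted p = 0.0751, edgeR). HSPB8 was at -0.43 ± 0.47 (adjusted p = 0.605, edgeR).

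In gallbladder HSPB1, HSPB2 and CRYAB were lower in CF than in WT, and HSPB6 was higher. Over d100 and d120, the stages held by both genotypes, 5 of 8 members were lower and 1 higher in CF, where 43.7% of the 18717 genes were called, 20.1% lower and 23.6% higher. CRYAB was at 31.6 and 32.4 CPM in WT d100 and 61.8 and 101.7 CPM in WT d120, against 3.95 and 2.78 CPM in CF d100 and 5.25 and 18.8 CPM in CF d120. Every CF library was below every WT library, and the mean log2 difference was -3.01 ± 0.49 (adjusted p = 0.00494, edgeR). HSPB2, its neighbour, was at 9.13 and 9.26 CPM in WT d100 and at 13.3 and 12.1 CPM in WT d120, against 1.29 and 1.15 and 1.98 and 4.01 CPM in CF (-2.50 ± 0.50, adjusted p = 0.0081, edgeR).

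HSPB1 was at 279.6 and 245.0 CPM in WT d100 and 341.9 and 398.2 CPM in WT d120, against 108.8 and 85.6 CPM in CF d100 and 91.9 and 109.5 CPM in CF d120. The genotypes did not overlap, and the difference was -1.66 ± 0.21 (adjusted p = 0.00262, edgeR). HSPB6 ran the other way. It was at 0.30 and 0.50 CPM in WT d100 and 0.23 and 0.09 CPM in WT d120, against 2.96 and 4.40 CPM in CF d100 and 5.29 and 4.47 CPM in CF d120 (4.10 ± 0.77, adjusted p = 0.00673, edgeR). The WT libraries rest on 27 and 9 estimated counts in all at d100 and d120. Among all genes, 21.5% had CF below WT and 27.5% CF above WT without overlap.

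HSPB8 did not follow these genes in gallbladder. It was at 41.8 and 43.4 CPM in WT d100, 31.1 and 60.1 CPM in WT d120, 41.2 and 39.3 CPM in CF d100 and 47.3 and 42.9 CPM in CF d120. The CF values lay inside the WT range, with a mean log2 difference of -0.05 ± 0.28 (adjusted p = 0.901, edgeR). BAG3 was at -0.42 ± 0.26 (adjusted p = 0.21, edgeR). HSPH1 and DNAJB1 were lower at -0.61 ± 0.19 and -0.66 ± 0.24 (adjusted p = 0.0337 and 0.0482, edgeR), calls lost in 11 and 12 of 15 alternatives.

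**Figure D4:**
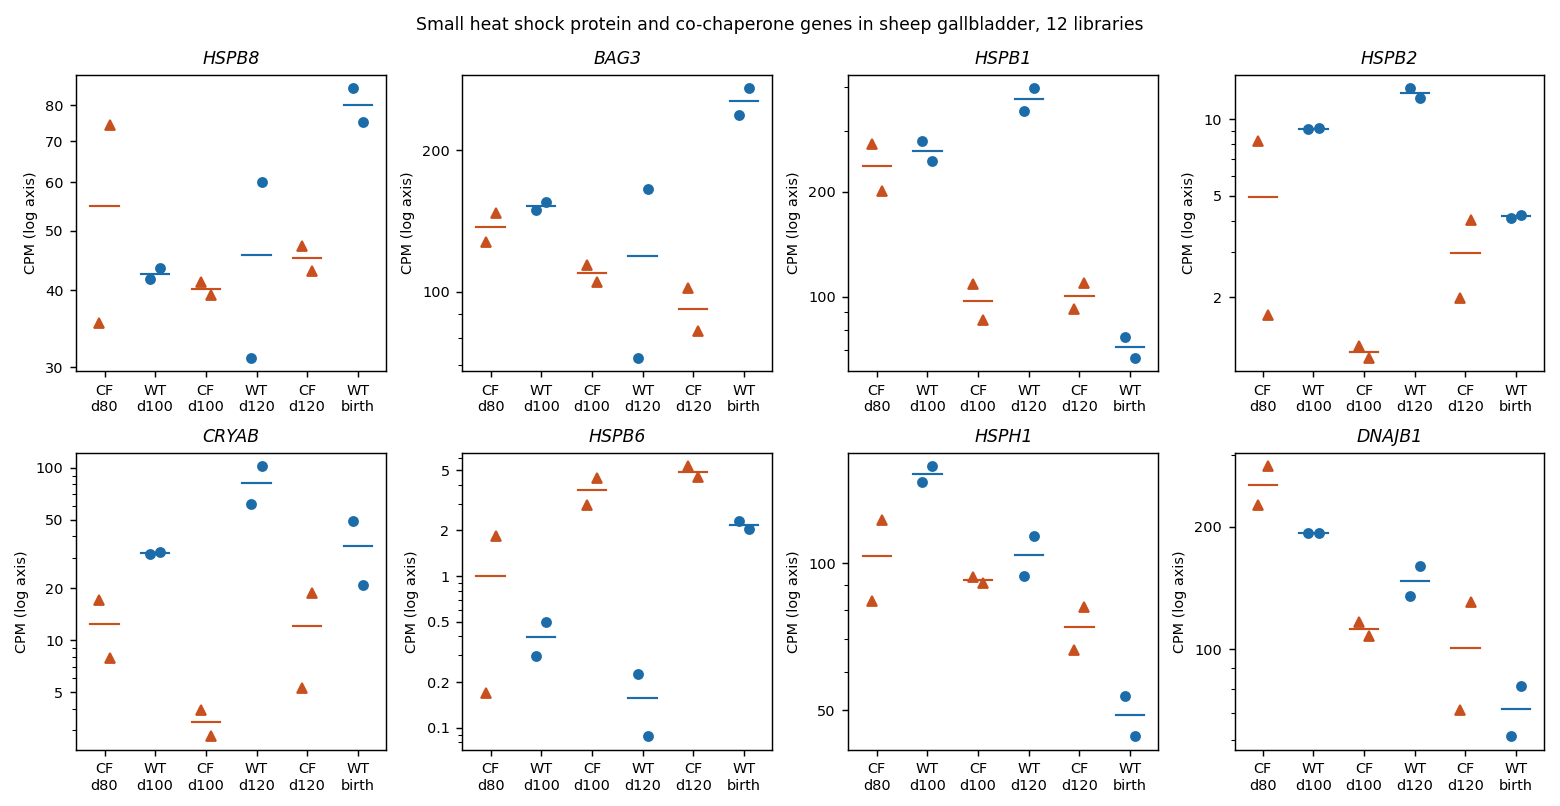
CPM (log axis) of the 8 members in the 12 gallbladder libraries, by genotype and stage, with bars for group means (n = 2, the CF d100 values being the columns a and b). At d100 and d120 every CF triangle is below every WT circle for HSPB1, HSPB2 and CRYAB, above them for HSPB6, and within the WT range for HSPB8.

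At single stages, HSPB1 and CRYAB were lower in CF at d100 (-1.43 and -3.25, adjusted p = 0.033 and 0.0368, edgeR) and at d120 (-1.88 and -2.76, adjusted p = 0.0132 and 0.0297, edgeR). HSPB2 was called at d100 (-2.91, adjusted p = 0.0492, edgeR) and HSPB6 at d120 (4.998, adjusted p = 0.0247, edgeR), so that 3 of 8 members were called at each stage, where 6.53% (2.28% higher, 4.25% lower) and 22.7% (13.2% higher, 9.45% lower) of genes were. The 3 members lost their d100 calls when any 1 of the d100 libraries was left out, as did all but at most 1 gene, and with the CF d100 columns summed to 1 unit 0 genes were called at d100. At d120 HSPB6 lost its call with any 1 of the 4 libraries left out, CRYAB with 3 of them, and HSPB1 without CF d120 replicate 1; HSPB6 and CRYAB also lost it with the summed columns. The d100 and d120 differences themselves differed for 0 members and 0 genes by edgeR, with 2470 genes at an unadjusted p under 0.05 and 992 called by DESeq2.

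The genotypes also differed in what tissue the gallbladder libraries held. Beside the hepatocyte genes given above, of which 8 of 21 were lower in CF, summed smooth muscle genes (17 of 18 in the table) were at 2458 to 11140 CPM in WT and 974 to 3572 CPM in CF, with 4 lower and 1 higher. Endothelial and mesenchymal genes were at 9515 to 19946 CPM in WT and 34585 to 63481 CPM in CF, with 7 of 14 higher. CF d120 replicate 2, the CF library with most CRYAB, was also the one with 76642 CPM of hepatocyte and 3572 CPM of smooth muscle genes, and with 1713 CPM of striated muscle genes against at most 59.5 CPM in the other 11 libraries. With the mean log2 level of the hepatocyte genes as a covariate, HSPB1, HSPB2, CRYAB and HSPB6 kept their directions and none of them passed. With the CF d100 columns summed to 1 unit all 4 passed (adjusted p = 0.0196, 0.0388, 0.0274 and 0.0279, edgeR). With 1 unit per donor-number stem none of them passed, and the highest adjusted p over all 15 alternatives was 0.12 for HSPB1, 0.127 for HSPB2, 0.121 for CRYAB and 0.122 for HSPB6 (edgeR). The stem units joined both CF d100 columns as well as the WT d100 pair, so 10 units were left. The part of smooth muscle and of mesenchyme was not tested.

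Some other chaperones in gallbladder were lower in CF, where 20.1% of all genes were lower and 23.6% higher. Of the 19 measured HSP70, HSP90 and chaperonin genes, 9 were lower and 0 higher, among them HSPD1 (-1.55 ± 0.25, adjusted p = 0.00484, edgeR) and HSPA8 (-0.87 ± 0.29, adjusted p = 0.0402, edgeR). Of 23 co-chaperones 11 were lower and 3 higher, with the J-domain gene DNAJB2 at -2.59 ± 0.34 (adjusted p = 0.0029, edgeR). Of 15 partners of BAG3-driven autophagy 9 were higher and 3 lower, with the filamin FLNC, a client of the complex in muscle, at 2.14 ± 0.27 and STUB1 at -1.16 ± 0.34 (adjusted p = 0.00273 and 0.0247, edgeR). With the hepatocyte covariate 0 genes of these 3 lists and 273 of all genes (1.46%) were called, and with the CF d100 columns summed 2 of 19, 5 of 23 and 0 of 15 were lower and 0, 1 and 8 higher, where 19.1% of genes were called. The list medians were -0.64, -0.63 and 1.79 in log2, against -0.63 for the members and 0.16 for all genes tested.

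WT gallbladder differed between the fetus and birth. From the mean of d100 and d120 to birth, 3 of 8 members fell and 1 rose, where 27.1% of genes were called (16.0% higher, 11.1% lower). HSPB1 fell to 76.6 and 66.6 CPM (-2.12 ± 0.28, adjusted p = 0.00636, edgeR). HSPH1 and DNAJB1 were lower by log2 -1.36 ± 0.25 and -1.24 ± 0.31 (adjusted p = 0.0139 and 0.025, edgeR). HSPB6 rose to 2.29 and 2.04 CPM (3.13 ± 0.81, adjusted p = 0.0281, edgeR). HSPB8 was at 85.4 and 75.2 CPM at birth and BAG3 at 237.6 and 271.4 CPM, in both genes above every fetal WT library, and neither passed the test (0.86 ± 0.33 and 0.92 ± 0.31, adjusted p = 0.0781 and 0.0549, edgeR). The called members lost their calls when either birth library was left out, and all but HSPB1 also without either WT d100 library. Summed hepatocyte genes were at 25908 to 71595 CPM at birth, below every fetal WT library. With the hepatocyte covariate HSPB1, HSPH1, DNAJB1 and HSPB6 kept direction and call (adjusted p = 0.0112, 0.024, 0.0415 and 0.0416, edgeR), and with the CF d100 columns summed DNAJB1 and HSPB6 did not pass (adjusted p = 0.051 and 0.0533, edgeR). This comparison and the CF minus WT one share the 4 fetal WT libraries.

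In CF gallbladder 0 of 8 members were called from d80 to the mean of d100 and d120, where 0.00534% of genes were. The CF d80 libraries differed from each other: HSPB2 was at 8.19 and 1.70 CPM, HSPB6 at 0.17 and 1.84 CPM and HSPB8 at 35.4 and 74.3 CPM. Smooth muscle genes were at 6471 and 909 CPM in the same libraries.

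HSPB8 and BAG3 were related across libraries in CF liver and in gallbladder. Of 9 relations computed on log2 (CPM + 0.5), each over 12 libraries of which several share a donor-number stem, Pearson's r for this pair was 0.857 in CF liver (adjusted permutation p = 0.00376; Spearman's rho 0.629, adjusted permutation p = 0.0562). In gallbladder r was 0.799 (adjusted permutation p = 0.00376) and rho 0.706 (adjusted permutation p = 0.0275). In WT liver r was 0.414 (adjusted permutation p = 0.202) and rho 0.021. The fetal liver values of HSPB8 are also those by which the members were chosen, so the liver r of this pair are a description. The permutations shuffled libraries across stages and kept no pairs or stems together. Without the libraries farthest from the median of HSPB8, CF d50 replicate 2 and CF d120 replicate 1, r in CF liver was 0.504 (unadjusted permutation p = 0.137), so the relation there rests on them. In gallbladder it was 0.588 (unadjusted permutation p = 0.071) without the WT birth libraries, and in WT liver -0.342 without the WT term libraries. The deviations of the libraries from their group means had an r of 0.914 in CF liver, 0.743 in gallbladder and -0.346 in WT liver. Each group holds 2 libraries, so its 2 deviations mirror each other. In CF liver the widest pairs were d50 and d120, which hold the 2 libraries named above. BAG3 was at 38.8 and 327.7 CPM in the d50 pair and at 113.0 and 40.5 CPM in the d120 pair. The r of 0.914 is thus not separate from those libraries.

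**Figure D5:**
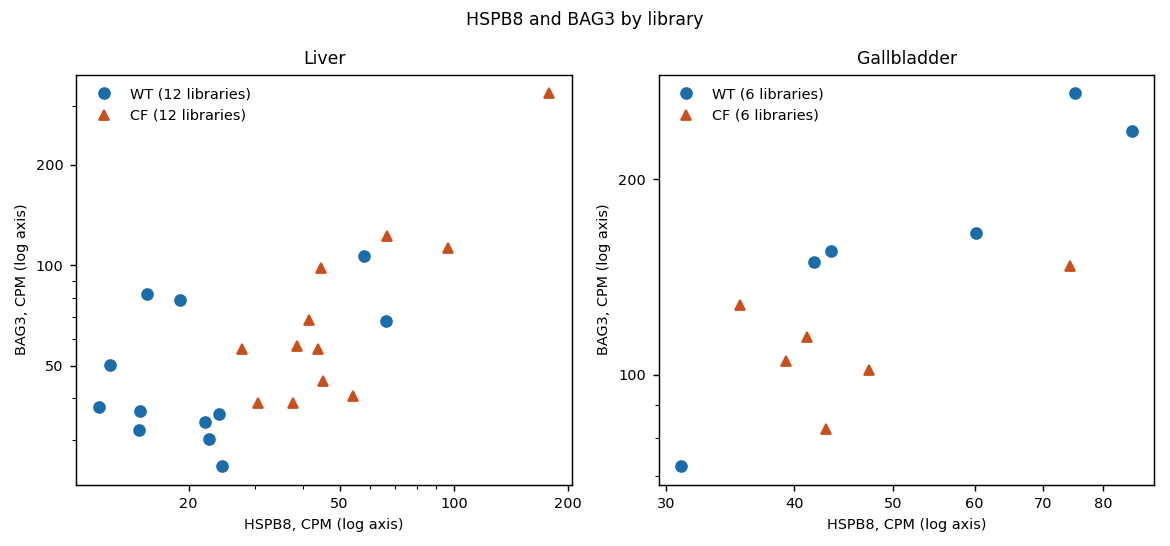
HSPB8 against BAG3 (CPM, log axes) in each liver and gallbladder library, circles WT and triangles CF. In liver the CF triangles lie to the right of the fetal WT circles, with CF d50 replicate 2 at 178.5 and 327.7 CPM; in gallbladder the WT birth libraries hold the highest values of both genes.

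HSPB2 and CRYAB were related in gallbladder (r 0.897, adjusted permutation p = 0.00153; rho 0.888, adjusted permutation p = 0.00248; r 0.849 without the 2 farthest libraries), where they also separate the genotypes. In WT and CF liver r was 0.495 and 0.198 (adjusted permutation p = 0.129 and 0.535). HSPH1 and DNAJB1, partners of HSP70, were related in WT liver (r 0.847, adjusted permutation p = 0.00266; rho 0.867) and in gallbladder (r 0.792, adjusted permutation p = 0.00472; rho 0.762). In CF liver their r of 0.836 (adjusted permutation p = 0.0168) was 0.422 (unadjusted permutation p = 0.223) without CF d50 replicate 2 and CF d120 replicate 1.

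The genes whose levels followed HSPB8 most closely differed between the tissues. Over the 24 liver libraries and among 11941 genes with a mean of at least 1 CPM, the highest Pearson r of log2 (CPM + 0.5) were 0.731 for PAPOLB, 0.726 for LASP1, 0.707 for SEMA4G, 0.702 for BAG3 and 0.700 for TPD52. Over the 12 gallbladder libraries and 13086 genes they were 0.972 for EPB41L4A, 0.953 for GATAD2A, 0.945 for DACT2, 0.925 for SLC4A2 and 0.921 for PICK1, with BAG3 at rank 242. The libraries share stages, donors and tissue makeup, and no test was made on these values. Between HSPB1 and HSPB8 the r was -0.07 in liver and -0.39 in gallbladder.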

How the data were processed

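RNA of 24 liver and 12 gallbladder libraries was analysed from the gene tables of the series; 6 chromatin accessibility libraries were not analysed here. The values are estimated counts per gene as deposited by the authors, a merged salmon table for gallbladder per the file headers. Although the liver table is named for TPM, its columns sum to 29705597 to 56808639, too much for that unit, and the values were read as estimated counts; a rescaling by transcript length by the authors cannot be told apart from this. Whole numbers within 0.001 made up 0.277% of liver and 87.8% of gallbladder values above 0. The submitters' processing notes name DESeq2, limma, edgeR, Salmon 1.9.0 and 1.10.1, and STAR 2.7.9a without their roles. No source used here gives the genome build, annotation or strand setting, and no positions are printed. Genes named by a locus number were given a RefSeq symbol where it matched, 127 in liver and 508 in gallbladder, and antisense or near-identical genes may share reads.

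Values were rounded and each tissue fitted separately in edgeR 4.0.16 (R 4.3.3) with TMM factors, filterByExpr, one mean per genotype and stage and the quasi-likelihood test, two-sided, with Benjamini-Hochberg adjustment over all 16508 or 18717 genes tested and a threshold of 0.05. SE is the log2 difference divided by the square root of F. Age slopes are linear in day from d50 to d120. Depth sets the precision of low genes, and CPM is not scaled for gene length, so levels are not compared between genes. Alternatives were DESeq2 1.42.0 (size factors, Wald test), no filter on low counts, each library left out, 1 unit per donor-number stem, limma 3.58.1 voom with the stem as a block, and an additive model. Stem units and a hepatocyte covariate in gallbladder, the CF d100 columns summed to 1 unit, and liver without CF d50 replicate 2 and CF d120 replicate 1 together were added after the data were seen. Correlations used 100000 permutations. The fits were tested on simulated data with known changes.

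The members, the gene lists and the tests were chosen with earlier results of these data known. Named genes are the members, list genes past the threshold or with the smallest p, and the 5 genes most like HSPB8 per tissue. HSPA1A, HSPA6, HSPA8, HSP90AA1 and HSF1 were named for CF d50 replicate 2 after their values were seen.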

Additional observations from a re-analysis of the deposited data

Results flagged for a closer look

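In each set of fetal WT, fetal CF, WT gallbladder and CF gallbladder libraries, the highest and lowest library of each member was compared with the nearest other one by Dixon's 95% criterion. Of 32 such sets 6 had a library standing apart. The sets pool stages and share libraries between members, so this count is not set against a chance rate. HSPB8 in fetal liver is also the value by which the members were chosen. In fetal CF liver, CF d50 replicate 2 stood apart as the highest of 10 libraries for HSPB8 (178.5 CPM), BAG3 (327.7 CPM), HSPH1 (510.9 CPM) and DNAJB1 (552.0 CPM), so that 4 of the 6 come from 1 library. In the same set CF d120 replicate 1 stood apart for HSPB6 at 0.411 CPM. In CF gallbladder, CF d80 replicate 2 was the highest of 6 libraries for HSPB8 at 74.3 CPM (74.25). None of the 8 members had a called difference between the d100 and d120 genotype differences in gallbladder.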

How the results depend on the processing

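No paired analysis was possible because the replicate numbers follow accession order and no compared groups share 2 or more donor numbers. Among the columns tied to a donor number, 4 donor numbers stand in both tissues, which are never compared, and 1 under both genotypes at different ages. The labels also place both donor numbers of the CF d100 gallbladder pair in CF d100 liver. Gallbladder without the donor number found under both genotypes could not be run, since its columns could not be tied to animals, and no promoter motif was searched. Groups of 2 libraries, shared donor-number stems, hepatocyte RNA in gallbladder and low counts of HSPB6 limit these results. With 1 unit per stem, groups left with a single unit are assumed to vary like the others. In gallbladder both CF d100 columns were taken there as 1 unit, since they carry 1 library name. The labels give that pair separate donor numbers. HSPB1, HSPB2, CRYAB and HSPB6 kept their gallbladder calls in 13 of 15 alternatives, all but the stem units and the hepatocyte covariate. The cause of the changes below was not tested.

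The number of genes called for the genotype difference in fetal liver was 420, against 914 with the DESeq2 Wald test, 78 with stem units, 278 without the shared donor number and 220 without CF d50 replicate 2 and CF d120 replicate 1, and leaving out 1 library gave 272 to 458. At the end of gestation the count of 5569 was 3536 to 5658 with 1 library left out. For the WT age slope, 792 became 1496 with DESeq2, 100 with stem units and 308 to 923 with 1 library left out. For the CF slope, 2731 became 1209 with stem units, 740 without the 2 CF libraries named above and 672 to 2789. The slope difference had 1 gene, with 179 in DESeq2, 5 with no filter, 0 with stem units, 0 in voom with the stem as a block (stem correlation 0.067), 3 without the shared donor number and 0 to 4 with 1 library left out. From d120 to the end of gestation, WT had 5848, 3273 with stem units and 3845 to 4417, and CF had 2431, 1141 without the 2 CF libraries and 1213 to 3166.

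In gallbladder the genotype count of 8183 was 0 with stem units, 273 with the hepatocyte covariate, 3734 with the CF d100 columns summed to 1 unit and 2500 to 8004 with 1 library left out. At d100, 1222 became 5167 with DESeq2, 0 with stem units, 3 with the covariate, 0 with the summed columns and 0 to 1. At d120, 4240 became 7856, 0, 1502, 1246 and 252 to 3977 in the same order. The difference between these stages had 0 genes, 992 with DESeq2 and 0 to 616. WT birth had 5074, with 8159 in DESeq2, 0 with stem units, 3633 with the covariate, 2434 with the summed columns and 41 to 5695. CF after d80 had 1, with 808, 0, 1, 0 and 0 to 6697 in the same order.

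Signs turned for these members. Without the 2 CF libraries HSPH1 was at -0.014 and DNAJB1 at -0.205 in fetal liver, and DNAJB1 at -0.122 without CF d50 replicate 2 (range with 1 library left out -0.122 to 0.529). HSPB8 at the end of gestation ranged from -0.478 to 0.058 with 1 library left out. Its CF slope ranged from -0.699 to 1.21, with 0.21 in voom and 0.813 without the 2 CF libraries. Its CF change from d120 to birth ranged from -0.792 to 0.035, with 0.035 without those libraries. In gallbladder its difference was 0.037 with DESeq2 size factors, 0.036 in the Wald test, 0.148 with the covariate and -0.243 to 0.236 with 1 library left out.

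Without the farthest 2 libraries r of HSPB8 and BAG3 was -0.342 in WT liver, 0.504 in CF liver and 0.588 in gallbladder, that of HSPB2 and CRYAB 0.48 in CF liver, and that of HSPH1 and DNAJB1 0.422 in CF liver. On deviations from group means r was -0.346 for HSPB8 and BAG3 in WT liver. It was 0.123, 0.403 and 0.647 for HSPB2 and CRYAB in WT liver, CF liver and gallbladder, and 0.577 and 0.497 for HSPH1 and DNAJB1 in WT liver and gallbladder. Of all other values for members, 597 kept direction and call, 121 lost a call, 21 gained one and 12 moved beyond the replicate spread.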
